A study of Homo sapiens with 6 samples.

Results

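The genes described here are the subunits of NF-kB and the inhibitors and feedback regulators that act on them, taken by symbol from the authors' table of all genes: NFKB1, NFKB2, REL, RELA, RELB, NFKBIA, NFKBIB, NFKBIE, TNFAIP3 and BIRC3. All 10 were in the table, among 16953 genes in all. The study sequenced RNA of H1048, an established line of small cell lung cancer of the POU2F3 (tuft cell-like) subtype, with 3 samples given ISP-I at 10 µM for 48 h and 3 given the solvent DMSO for 48 h. ISP-I is isovalerylspiramycin I, a macrolide. Every sample was of wild-type genotype, and the series names its 3 samples per group biological replicates.

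The authors' comparison sets libraries D to F over libraries A to C. The labels do not say which treatment a library letter stands for. Differences below are therefore those of D to F over A to C, and the sources used here do not state which set received ISP-I. For the same reason the values of single libraries were not used. Levels, depth and the spread among replicates are therefore not given, and genes can be set side by side only by their fold changes. As an error, a 95% interval was computed from each deposited fold change and its p-value. This implied interval holds only if the p-values come from a Wald test on the same fold changes, the default of DESeq2. Calls, in either direction, took an adjusted p under 0.05. Which genes were read as having no adjusted p is stated under the processing of the data. Fewer cells of one type and less RNA per cell cannot be told apart in such bulk samples.

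NF-kB is a family of dimeric transcription factors that bind kappaB sites in DNA. RELA, REL and RELB carry activation domains, whereas NFKB1 and NFKB2 encode the precursors p105 and p100, which are processed to p50 and p52. In unstimulated cells the dimers are held in the cytoplasm by IkB proteins. In the canonical pathway the IKK kinase complex marks IkB for degradation, and dimers such as RELA with p50 enter the nucleus. In the non-canonical pathway the kinase NIK, encoded by MAP3K14, triggers processing of p100, and RELB with p52 is released. NFKBIA, NFKBIE, TNFAIP3 and BIRC3 are known NF-kB targets that restrain or shape the signal. Several of the subunit genes are known targets too.

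Several of these genes, though not all, are known targets of their own family. Promoters of the 10 genes were therefore searched on both strands for the kappaB consensus of 10 bases (GGG, a purine, any pair of bases, a pair of pyrimidines, CC). The sequences are RefSeq windows on GRCh38.p14, from 250 bases before to 50 after each transcription start. The table of promoters held 13 windows for 8 of the 10 genes; RELB and NFKBIE had none. A match lay in 8 of the 13 windows and in 7 of the 8 genes, against 11.3% of all 35116 windows and 13.3% of all 27305 genes in that table. RELA held no match in either of its 2 windows. A match is a run of letters and not a measured binding site.

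A choice of these matches, from each gene that held one, is printed below. All were found by the same consensus, so a likeness among them follows from the search. Other matches of NFKB2 and NFKBIB are not printed. Capitals mark the matched bases, and sequences are given 5′ to 3′ on the strand of the gene. Windows of 30 bases are shown where a match or its flank may lie in an annotated exon. NFKB1 lies at chr4:102501300-102501329 (plus strand), NFKB2 at chr10:102394461-102394490 and, for the start farthest downstream, at chr10:102395674-102395703 (plus strand), and REL at chr2:60881517-60881546 (plus strand). TNFAIP3 lies at chr6:137867188-137867217 (plus strand), with 2 matches a pair of bases apart. NFKBIB lies at chr19:38899931-38899960 (plus strand). BIRC3 (chr11:102317270-102317373, plus strand) and NFKBIA (chr14:35404750-35404999, minus strand) are shown over longer stretches that GENCODE release 29 places in no exon.
NFKB1: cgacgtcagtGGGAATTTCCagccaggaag
NFKB2, middle start: gaaacgtcatGGGAATTCCCCcctccgggg
NFKB2, start farthest downstream: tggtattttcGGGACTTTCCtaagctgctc
REL: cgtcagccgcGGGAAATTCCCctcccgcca
TNFAIP3: ctttGGAAAGTCCCgtGGAAATCCCCgggc
NFKBIB: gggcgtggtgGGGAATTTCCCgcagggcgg
BIRC3: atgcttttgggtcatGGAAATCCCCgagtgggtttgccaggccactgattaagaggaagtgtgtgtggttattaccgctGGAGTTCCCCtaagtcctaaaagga
NFKBIA: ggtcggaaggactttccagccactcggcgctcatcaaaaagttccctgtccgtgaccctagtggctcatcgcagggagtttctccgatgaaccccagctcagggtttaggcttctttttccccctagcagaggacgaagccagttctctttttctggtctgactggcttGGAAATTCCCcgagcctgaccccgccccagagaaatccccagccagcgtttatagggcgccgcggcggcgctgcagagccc

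The same 10 letters GGGAATTTCC, read on one strand or the other, occurred upstream of NFKB1, REL, NFKBIA and NFKBIB. In NFKB1 the match ran from 49 to 40 bases before the start, in REL the 2 overlapping matches from 47 to 37, and in NFKBIA the match from 81 to 72. The 2 matches of TNFAIP3 lay from 67 to 58 and from 55 to 46 bases before its start. Those of BIRC3 lay farther out, from 199 to 190 and from 135 to 126. By GENCODE 29 the matches of REL and TNFAIP3, and those of NFKB2 printed above, lie in annotated exons of these genes, that of NFKB1 in an exon of the neighbouring AF213884.3, and those of NFKBIA, BIRC3 and the printed one of NFKBIB in no exon. Over the whole table, of 2113 genes with an adjusted p and a match, 28.8% were called higher and 33.1% lower, and of 10196 without a match 31.1% were called higher and 27.9% lower.

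**Figure D1:**
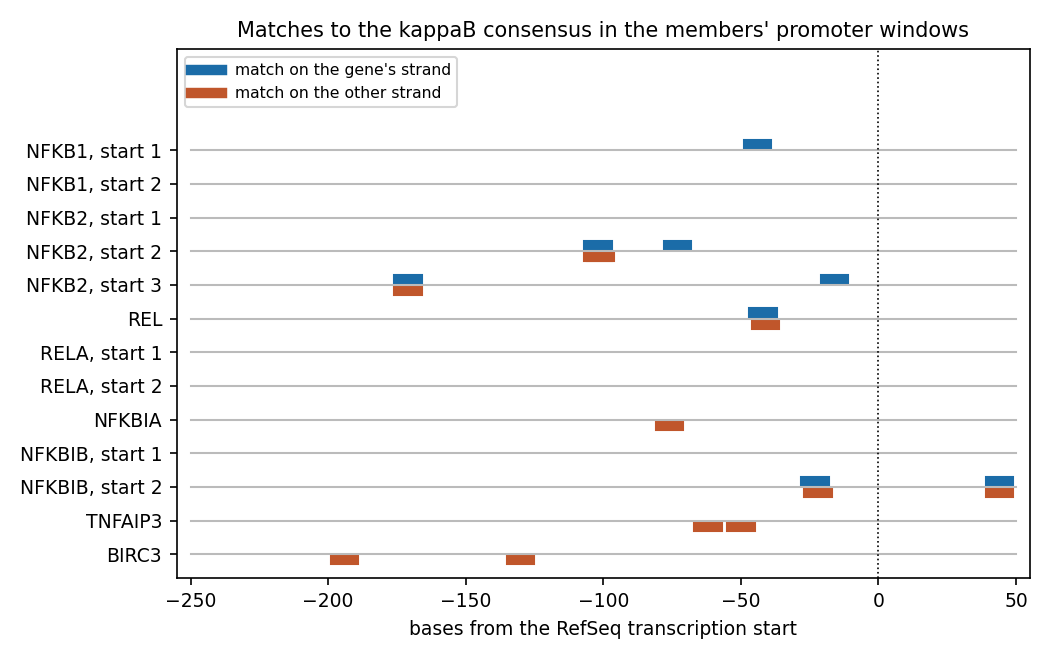
Matches to the 10-base kappaB consensus in the 13 RefSeq promoter windows of 8 genes, by distance in bases from the transcription start (0, dotted); blue bars are matches on the gene's strand and orange bars matches on the other strand. Matches fall in 8 windows, from 199 bases before a start (BIRC3) to 48 after one (NFKBIB), and both RELA windows are empty.

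The NF-kB genes, chosen with earlier results of these data known, were higher in libraries D to F wherever an adjusted p was given. By the reading stated under the processing of the data, the authors' deposited table gives an adjusted p, in DESeq2's naming, for 9 of them. Each of the 9 was called higher and none lower (also 9 and 0 at an unadjusted p under 0.05); of all 15976 such genes, 29.7% were called higher and 27.9% lower. Their log2 fold changes ran from 0.54 to 2.42, with a median of 1.11, against a median of 0.05 over all genes with an adjusted p. At least 2-fold, 5 of them were higher (TNFAIP3, RELB, NFKB1, NFKB2 and BIRC3), as were 12.8% of those 15976 genes. The tenth gene, NFKBIB, was read as having no adjusted p.

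**Figure D2:**
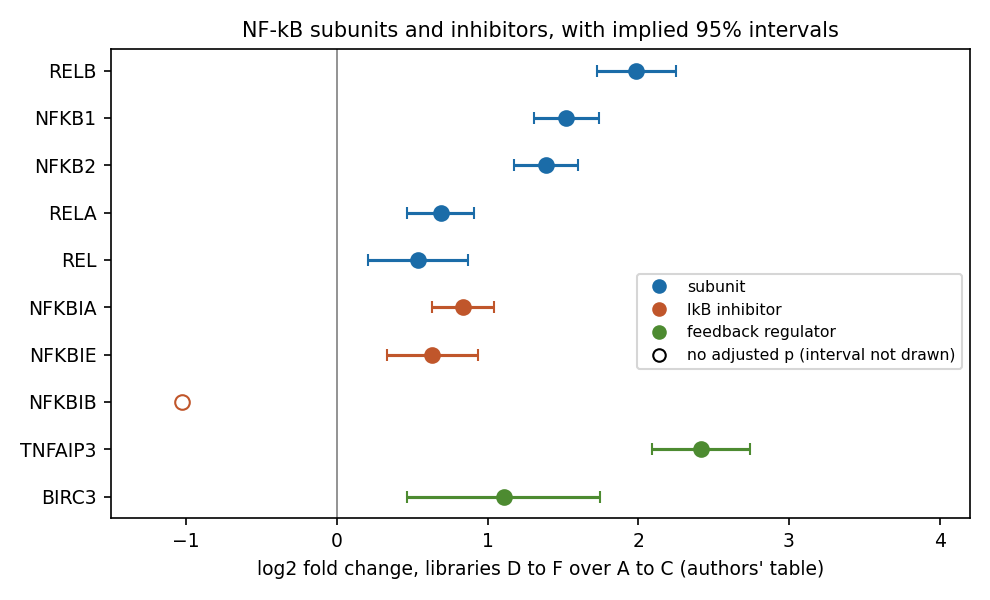
Log2 fold change of libraries D to F over A to C for the 10 genes, from the authors' deposited table, ordered within roles. Bars are the 95% intervals implied by the deposited p-values, and the open circle is NFKBIB, read as having no adjusted p. The 9 filled points lie between 0.54 and 2.42, and none of their intervals reaches 0.

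Among the 5 subunits, RELB was highest by fold change. RELB, the partner of p52 in the non-canonical pathway (chromosome 19, 45001430 to 45038198), had a log2 fold change of 1.99 in the authors' deposited table, or 3.96-fold (adjusted p = 2.66e-48, implied interval 1.72 to 2.25). NFKB1, the precursor of p50 (chromosome 4, 102501329 to 102617302), was at 1.52 or 2.87-fold in the authors' deposited table (adjusted p = 1.1e-41, implied interval 1.31 to 1.74). NFKB2, the precursor of p52 (chromosome 10, 102394110 to 102402529), was at 1.39 or 2.62-fold there (adjusted p = 6.48e-37, implied interval 1.18 to 1.60). All 3 exceeded 2-fold, and the interval of RELB lay above that of NFKB2 but overlapped that of NFKB1.

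RELA and REL, the subunits with strong activation domains, were higher by smaller folds. RELA (chromosome 11, 65653596 to 65663094) stood at 0.69 or 1.61-fold in the authors' deposited table (adjusted p = 8.07e-09, implied interval 0.46 to 0.91). REL (chromosome 2, 60881521 to 60931610) stood at 0.54 or 1.45-fold in the authors' deposited table (adjusted p = 0.00351, implied interval 0.20 to 0.87). The intervals of RELA and REL overlapped, and both lay below those of RELB, NFKB1 and NFKB2; differences between genes were not tested. By GENCODE 29, 43.3% of the exonic bases of REL are shared with AC010733.2 on the same strand, so the value of REL is uncertain if the authors' annotation held both.

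Of the 3 IkB genes, NFKBIA and NFKBIE were higher. NFKBIA encodes IkB-alpha, the inhibitor that is rapidly resynthesised after activation (chromosome 14, 35401511 to 35404749). It had a log2 fold change of 0.84 or 1.79-fold in the authors' deposited table (adjusted p = 1.12e-14, implied interval 0.63 to 1.05). NFKBIE, which encodes IkB-epsilon (chromosome 6, 44258166 to 44265788), was at 0.63 or 1.55-fold there (adjusted p = 1.00e-04, implied interval 0.33 to 0.93). Their intervals overlapped each other and that of RELA.

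NFKBIB, which encodes IkB-beta (chromosome 19, 38899700 to 38908893), carries no usable value. Its log2 fold change of -1.03 and its p-value of 0.801 in the authors' deposited table are shared exactly by 185 genes, none of which has an adjusted p. The implied interval of NFKBIB runs from -9.03 to 6.97 and so covers large changes in either direction. Exons of NFKBIB overlap those of SIRT2 on the opposite strand by 40 bases in GENCODE 29, or 1.72% of its exonic bases. For TNFAIP3, 1.88% of the exonic bases are shared with AL357060.1, also on the opposite strand.

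TNFAIP3 had the largest fold change of the 10 genes. It encodes A20, a ubiquitin-editing enzyme that shuts off signalling upstream of IKK (chromosome 6, 137867188 to 137883312). The authors' deposited table lists it at 2.42 or 5.33-fold (adjusted p = 8.26e-47, implied interval 2.09 to 2.74). Its interval overlapped that of RELB and lay above those of the other 7 called genes. Of all genes with an adjusted p, 6.54% had a log2 fold change at or above that of TNFAIP3, and 8.93% one at or above that of RELB.

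BIRC3 encodes cIAP2, a ubiquitin ligase that acts with TRAF2 and TRAF3 to degrade NIK (chromosome 11, 102317450 to 102339403). It was at 1.11 or 2.15-fold in the authors' deposited table (adjusted p = 0.00158). Its implied interval, 0.47 to 1.74, was the widest of the 9 called genes and overlapped those of all of them but TNFAIP3. Its paralogue BIRC2, which encodes cIAP1, was at 0.42 (adjusted p = 0.000595 in the authors' deposited table).

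**Figure D3:**
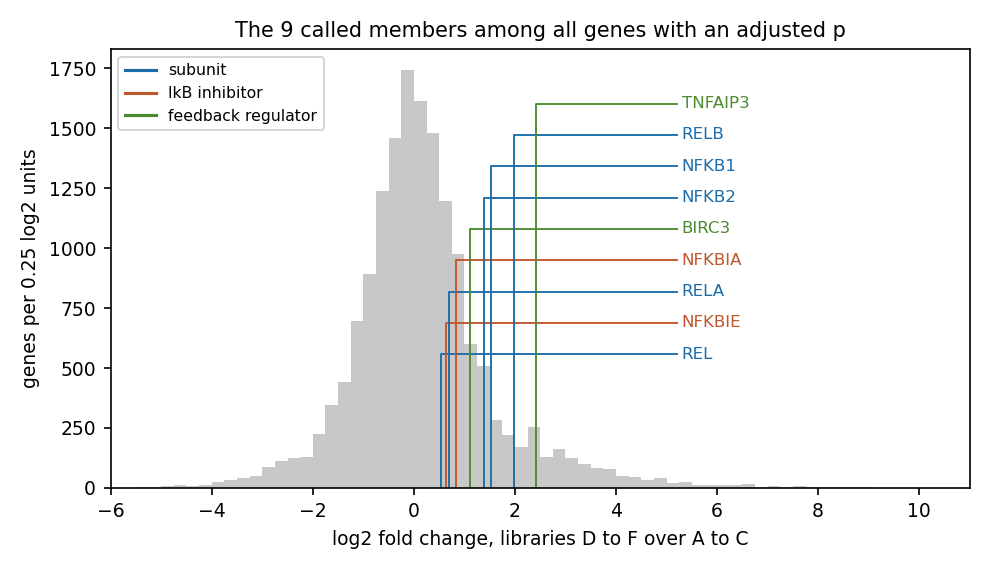
Number of genes per 0.25 log2 units of fold change, libraries D to F over A to C, for all genes with an adjusted p (grey), with the 9 called NF-kB genes marked by coloured lines. The marked genes all lie right of 0, from REL at 0.54 to TNFAIP3 at 2.42, within the range where many other genes lie.

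The counts of the 6 wider lists below stand beside 29.7% of all genes with an adjusted p called higher and 27.9% lower, shares at which a list holds both directions; whether any list differed from them or from the 9 genes above was not tested. In the IKK list of kinases, their partners and the CARD-BCL10-MALT1 adaptors, 7 were higher and 3 lower of 17 that had an adjusted p, with a median log2 fold change of 0.04. MAP3K14, which encodes NIK, had the largest value of the list at 3.60 (adjusted p = 7.81e-120 in the authors' deposited table). BCL10 (1.18), CARD10 (0.83), MALT1 (0.46) and TAB2 (0.30) were higher in the authors' deposited table, all parts of the relay from receptors to IKK. IKBKB, the catalytic IKK subunit of the canonical pathway, was lower (-0.45), as were the related kinase gene IKBKE (-0.85) and TAB1 (-0.42), in the authors' deposited table. Of the other IKK subunits, IKBKG, the regulatory one, was called higher at 0.55 (adjusted p = 0.0308), and CHUK, the one used by NIK, was at 0.05 and was not called, in the authors' deposited table.

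Of 27 receptors and adaptors, 10 were higher and 8 lower, with a median of 0.10. TNFRSF12A, the receptor of the cytokine TWEAK, which can engage the non-canonical pathway, was at 5.51 in the authors' deposited table, where its p is given as 0. The adaptors TRAF1 (3.02) and TRAF2 (0.99), the kinase RIPK1 (0.55) and the interleukin-1 co-receptor IL1RAP (0.62) were higher there too. Lower in the authors' deposited table were the interleukin-1 receptor IL1R1 (-1.69), the Toll-like receptor TLR4 (-2.11) and the adaptors MYD88 (-0.80), TRADD (-0.94) and TRAF3 (-0.61). Implied intervals were wide for TRAF1 (2.20 to 3.83) and TLR4 (-3.33 to -0.89).

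Nuclear IkB proteins and cofactors numbered 7 higher and 2 lower of 14, with a median of 0.20. BCL3, an atypical IkB protein that works with p50 and p52 in the nucleus, was at 0.83 (adjusted p = 1.04e-06 in the authors' deposited table). AKIRIN2 (1.18), PDLIM2 (1.46), a ligase that marks nuclear RELA for degradation, the importin KPNA4 (0.67) and RNF25 (0.77) were higher in the authors' deposited table, and the phosphatase PPP4C (-0.47) and the nuclear IkB gene NFKBIZ (-0.48) were lower.

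Ubiquitin editors other than TNFAIP3 were 4 higher and 7 lower of 15, with a median of -0.24. CYLD, a deubiquitinase that like A20 restrains the pathway, was at 0.96, the ligase ITCH at 1.05, OTUD7B at 0.83 and the A20 adaptor TAX1BP1 at 0.42, all called higher in the authors' deposited table. RBCK1, a subunit of the linear ubiquitin ligase, was lower (-0.80), as were OTULIN (-0.42), the A20 partner TNIP1 (-0.28), USP18 (-0.89) and USP21 (-0.27), in the authors' deposited table.

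Of 19 target genes outside the family that are not secreted, 7 were higher and 8 lower, with a median of 0.31. GADD45B (3.95), KLF6 (3.77), RIPK2 (1.09), IRF1 (0.62) and TNFRSF10B (0.60) were higher in the authors' deposited table, whereas TNFAIP2 (-1.58), IFNGR2 (-1.01), the caspase-8 inhibitor gene CFLAR (-0.87), BCL2L1 (-0.49) and VCAM1 (-0.41) were lower. Secreted targets were 7 higher and 1 lower of 14, with a median of 2.41. CXCL8 (6.64), MMP9 (4.63), CXCL3 (4.21), LIF (4.19) and CCL2 (2.88) were higher there, and TNFSF10, which encodes TRAIL, was lower (-3.71). Implied intervals were wide for MMP9 (2.66 to 6.61), CCL2 (1.49 to 4.28) and TNFSF10 (-6.28 to -1.14), against 3.78 to 4.61 for LIF. BCL2A1, IER3, CXCL1 and CXCL5 share 1 fold change and p-value with 377 genes in all and have no adjusted p.

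**Figure D4:**
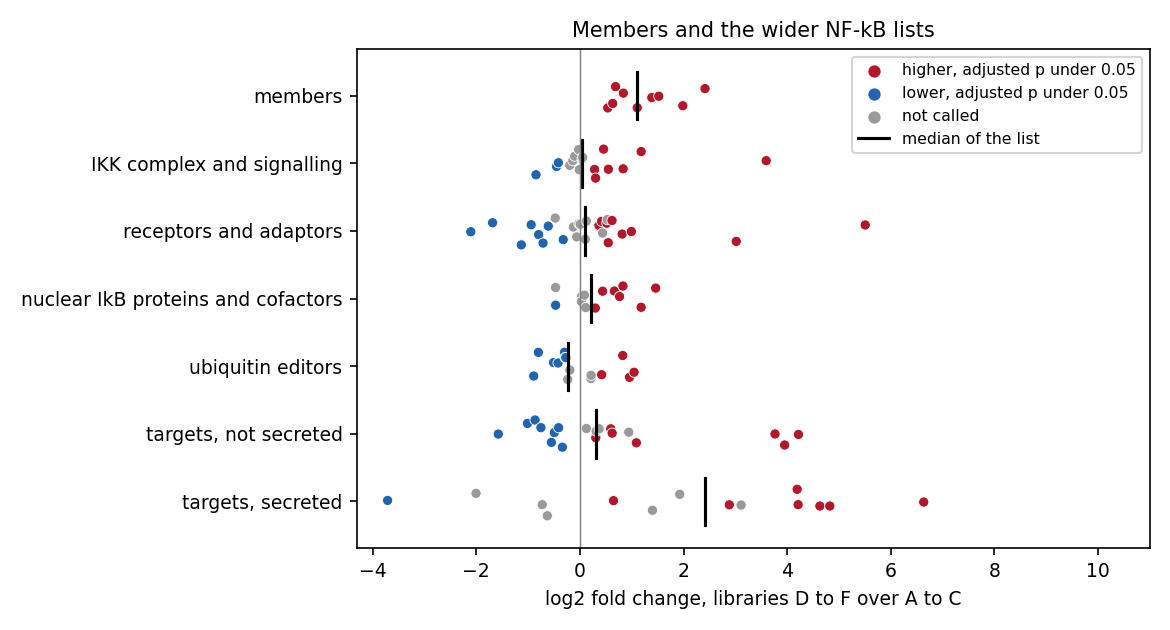
Log2 fold changes of libraries D to F over A to C for the NF-kB genes (members) and 6 wider lists, genes with an adjusted p only, red called higher, blue called lower, grey not called, black bars list medians. All 9 points of the top row are red, while each of the lists below it holds both red and blue points.

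Markers were looked at for the labelled cell type and for leukocytes, fibroblasts and endothelium, although the labels name only H1048 cells, an established line. Markers of the POU2F3 subtype were 3 lower of 5 and none higher, with POU2F3 at -1.71, AVIL at -2.31 and SOX9 at -1.25 in the authors' deposited table, while the epithelial markers KRT8 (1.24), KRT18 (1.12) and EPCAM (0.55) were all higher there. Leukocyte markers were 2 higher and none lower of 6, LYZ at 4.90 and CD79A at 2.02 (adjusted p = 0.0463 in the authors' deposited table). PTPRC, a pan-leukocyte marker, was at 0.19 in the authors' deposited table and was not called. Its implied interval, -2.86 to 3.24, covers large changes in either direction. Fibroblast markers were 2 lower of 3 and none higher (COL1A1 at -0.57 and PDGFRB at -1.86 in the authors' deposited table), and neither of 2 endothelial markers was called. Since levels were not used, whether any of these markers is absent from the H1048 cells is not given. No label names other cells in the samples, and the markers were not tested as a sign of them.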

How the data were processed

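RNA was isolated with TRIzol and read as paired ends, per the labels' protocols. Trimmomatic, STAR, HTSeq, DESeq2 and build hg38 are named in the submitters' processing notes; the version of each, the annotation and whether strand was used were not given in the sources used here. Deposited by the authors were a log2 fold change per gene with its p-value, raw and adjusted, per the file headers in DESeq2's naming. An adjusted p-value of exactly 1 (977 genes) was read as none given. The 18 columns of single libraries carry no label that ties them to samples and were not used, so the edgeR test planned for counts, which needs those columns, was not run; depth is not given.

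Members and lists were chosen with earlier results of these data known. Calls used the authors' adjusted p-values over 15976 genes; no p was adjusted over a list alone. Implied intervals are log2 fold change ± z times its size divided by the z of its p-value, at 95%. From each of the 6 wider lists, up to 5 called genes per direction with the smallest p were named. Other genes were named after their values were seen (BIRC2, CHUK, IKBKG, PTPRC, CCL20, IL1A, CSF2, IL1B and those without an adjusted p). Members absent from the table were not analysed here. The same holds for listed genes: the table held 21 of 22 targets that are not secreted and 15 of 17 ubiquitin editors. It held 2 of 3 endothelial markers. The adjustment, the standard errors behind the intervals and the motif search were tested on simulated data. The simulated p-values came from a Wald test, so this could not check whether the deposited ones do. Exons came from GENCODE 29. Python 3.11.15 was used with pandas 2.3.3, numpy 2.4.6, scipy 1.17.1 and matplotlib 3.10.9.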

Additional observations from a re-analysis of the deposited data

How the results depend on the processing

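The 9 NF-kB genes called higher, and 0 lower, were also the counts with an adjusted p under 0.01, with p adjusted again over every gene in the table, and after the median fold change over all genes (0.06 on the log2 scale) was subtracted. The subtraction left each p as deposited, so it could change a call only by reversing a sign. The smallest log2 fold change of the 9 was 0.54 (REL), so no sign could reverse. Their largest adjusted p was 0.00351 (REL), so the count under 0.01 follows from values given above. Demanding at least 2-fold left 5 higher. That demand also left 2 higher and 0 lower in the IKK list, 2 and 3 among receptors and adaptors, 2 and 0 among nuclear IkB proteins and cofactors, 1 and 0 among ubiquitin editors and 4 and 2 among targets that are not secreted; fewer genes pass by its construction. With an adjusted p under 0.01, calls of lower genes came to 1 among nuclear IkB proteins and cofactors and 3 among ubiquitin editors. The other 55 of the values recomputed kept their direction, and their counts lay within 1.5 times. A looser motif (3 G, any 5 bases, 2 C) was found in 8 of 8 genes but in 58.7% of all windows, and the consensus within 150 bases before a start in 7 of 8 genes and 6.19% of windows. Leaving out replicates, other count models, filters on counts and scalings were not run, since they need the values per library. No paired analysis was possible because no library can be tied to a sample or its replicate number. The precision set by depth is unknown.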
